A study of Mus musculus with 8 samples.

Results

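Transcripts of 35 genes of the autophagy and lipophagy machinery were measured in the liver of fasted WT mice and of mice that carry PLIN5 S155A. The genes were taken from a list of named members, and each was found by its symbol in the deposited table of 45706 genes. All 35 were among the 14629 genes tested after the filter on low counts. The samples were 8 livers from female C57BL/6J mice, 4 months of age, all on regular chow and fasted overnight, with 4 mice of each genotype and 1 library per mouse. In the S155A mice, called SA/SA in the paper, CRISPR-Cas9 editing had exchanged the serine named in S155A for alanine in the endogenous gene of the lipid droplet protein PLIN5, in the whole body. The edit was sequenced in a founder mouse, the number of founders behind the line is not given in the sources used here, and fed mice are not analysed here. The comparison asks whether loss of this protein kinase A site changes the hepatic transcript level of autophagy genes during fasting.

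Autophagy encloses cytoplasm in a double membrane, the autophagosome, which then fuses with the lysosome, where its content is digested. It is started by the ULK kinase complex and the class III phosphatidylinositol 3-kinase complex, and the membrane grows while proteins of the ATG8 family (LC3 and GABARAP) are linked to phosphatidylethanolamine by a ubiquitin-like conjugation system. In liver it is known as a response to fasting, and lipophagy is the form in which lipid droplets are delivered to the lysosome and their lipid is cut by lysosomal acid lipase. Transcription factors of the TFEB and TFE3 family are known to bind sites built around the E-box CACGTG in the promoters of autophagy and lysosome genes.

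Because 2 members (Tfeb and Tfe3) encode factors that bind the E-box, the promoters of the members were searched for it. RefSeq promoter windows (GRCm38.p6, from 250 bases before to 50 bases after a transcription start) were matched for 29 of the 35 members, in 35 windows. The E-box CACGTG, which reads the same on both strands, was in 6 of these 35 windows (17.1%) and in 7.15% of all 32851 windows. TCACGTG, searched on both strands and always overlapping a CACGTG, was in 4 of the 35 windows (11.4%), those of Atg3, Atg7, Atg14 and Lamp1, and in 3.77% of all windows. The FOXO motif GTAAACA, on either strand, was in 0 of the 35 windows and in 3.65% of all windows. The upstream 250 bases are shown for Lamp1, Atg3 and Atg7, which hold TCACGTG before the start, and for Ulk2, the member whose mice did not overlap between genotypes. Capitals mark CACGTG and any flanking T or A that completes TCACGTG on either strand.
Lamp1, chr8:13158911-13159160, forward strand: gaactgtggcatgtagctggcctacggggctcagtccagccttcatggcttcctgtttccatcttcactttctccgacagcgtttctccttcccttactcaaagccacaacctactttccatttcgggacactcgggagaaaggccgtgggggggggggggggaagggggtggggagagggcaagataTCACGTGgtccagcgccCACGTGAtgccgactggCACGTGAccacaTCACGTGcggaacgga
Atg3, chr16:45158579-45158828, forward strand: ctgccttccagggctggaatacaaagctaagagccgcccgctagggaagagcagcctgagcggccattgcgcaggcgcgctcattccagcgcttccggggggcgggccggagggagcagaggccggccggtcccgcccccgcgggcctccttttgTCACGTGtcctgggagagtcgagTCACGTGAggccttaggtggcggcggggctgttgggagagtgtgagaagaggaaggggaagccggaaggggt
Atg7, chr6:114670846-114671095, forward strand: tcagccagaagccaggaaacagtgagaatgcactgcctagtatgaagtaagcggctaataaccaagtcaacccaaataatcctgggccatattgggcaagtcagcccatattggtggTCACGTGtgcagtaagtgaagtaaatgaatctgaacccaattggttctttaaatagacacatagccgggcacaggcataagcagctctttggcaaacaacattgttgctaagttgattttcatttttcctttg
Ulk2, chr11:61855093-61855342, reverse strand: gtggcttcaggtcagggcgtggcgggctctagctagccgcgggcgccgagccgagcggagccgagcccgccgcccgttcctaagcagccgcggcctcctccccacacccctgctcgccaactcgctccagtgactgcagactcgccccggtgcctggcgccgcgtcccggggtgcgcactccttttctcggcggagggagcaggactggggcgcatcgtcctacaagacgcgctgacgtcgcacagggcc

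The Lamp1 promoter held CACGTG 4 times, with first bases at -61, -45, -28 and -15 from the start, and the Atg3 promoter held it at -94 and -71. Atg7 had a single copy at -132. In Atg14 the copy began at -1 and ran across the start, and Bnip3 and Atg5 had CACGTG without the T, at -108 and -14. The RefSeq starts used for Atg3, Atg7, Atg14 and Bnip3 lie inside the spans that GENCODE M21 gives these genes. For Atg3 and Bnip3 the window reaches outside the span, but for Atg7 and Atg14 the whole window is inside it. The Atg7 window begins at 114670846, while the gene begins at 114643097, so this is not the promoter at the gene's outer start. The Atg14 window ends at 47568684, while that gene, on the reverse strand, has its outer start at 47570649. The Ulk2 window held none of the 3 motifs, which says only that these letters are not in it.

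Expression is given as CPM, the estimated count relative to a library total adjusted by TMM, and libraries held between 39709785 and 54540864 counts. A member had between 129 counts (Atg10) and 29689 counts (Sqstm1) in a mouse. All 5 hepatocyte markers were abundant, with a summed level from 83094 to 120378 CPM per mouse, and markers of Kupffer, endothelial and stellate cells were also present, while RNA was extracted from liver, so the libraries are read as whole liver although the labels name hepatocytes as the cell type. In bulk liver, a different share of a cell type and a different amount of RNA per cell cannot be told apart. Plin5 itself was between 183 and 254 CPM in WT mice and between 192 and 457 CPM in S155A mice, which overlapped. Its mean was 206 CPM in WT and 328 CPM in S155A mice, a log2 fold change of 0.67 with a standard error of 0.24. It was not called (edgeR quasi-likelihood test, unadjusted p = 0.0193 and adjusted p = 0.993). Gene counts cannot show which codon a mouse carried. The mice carry numbers in the labels, which were under 200 for replicates 1 and 4 of both genotypes and over 800 for replicates 2 and 3 of both. The labels do not say what this number is, and genotype differences are also given within each number series, 2 WT against 2 S155A mice.

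Divided by the length of the principal transcript, the autophagy transcripts spanned a wide range in WT liver. Sqstm1, which encodes the cargo receptor p62, was at 257 ± 19.6 CPM per kb (SD, n = 4), Lamp1, a major glycoprotein of the lysosomal membrane, at 218 ± 10.6, and Gabarapl1, an ATG8 family member, at 211 ± 28.7. Lamp1 and Gabarapl1 differed by less than the spread between mice. With the total exon length in place of the principal transcript, the same 3 genes were at the top in another order, with Gabarapl1 at 190.4, Lamp1 at 182 and Sqstm1 at 156 CPM per kb. At the other end were Atg10, the E2-like enzyme that joins ATG12 to ATG5, at 2.13 ± 0.172 CPM per kb, Atg4c at 2.48 ± 0.360 and Rb1cc1 at 2.50 ± 0.393. The last 2 did not differ beyond their spread. With the total exon length the low end changed, to Rb1cc1 at 1.30, Atg10 at 1.96 and Wipi1 at 2.25 CPM per kb. By principal transcript, Sqstm1 in S155A mice was again the highest, at 260.5 ± 20.4 CPM per kb, and Atg10 the lowest, at 2.04 ± 0.366, while Gabarapl1 (212) and Lamp1 (210.5) stood in the opposite order within their spread.

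No autophagy gene was called between genotypes. Of the 35 members, 0 passed an adjusted p of 0.05 in edgeR's quasi-likelihood test, the smallest adjusted p was 0.993, and the percentage called among all genes tested was 0.00%. DESeq2 called 0 of 35 as well, the smallest adjusted p being 0.514. A single member, Ulk2, had an unadjusted p under 0.05, which is 2.86% of the members beside 3.40% of all genes tested. By direction this was 1 member lower in S155A mice (1.98% of all genes) and 0 members higher (1.42% of all genes). Ulk2 was also the only member whose WT and S155A mice did not overlap, again 2.86% beside 2.30% of all genes (1.36% lower and 0.943% higher). Both shares were near the background. In S155A mice 19 members were higher and 16 were lower, which is 54.3% higher beside 48.8% of all genes. This split depended on scaling: with library size alone in place of TMM, 12 members were higher and 23 lower (34.3% higher, beside 41.1% of all genes). The median log2 fold change of the members was 0.017, beside -0.0050 for all genes tested, and single members ran from -0.34 (Wipi1) to 0.15 (Map1lc3b).

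The data limit how large a genotype difference could be. The 95% interval of the log2 fold change lay within a 1.5-fold change in either direction for 32 of the 35 members (91.4%) and for 49.8% of all genes tested, which were expressed at a lower median level (10.4 CPM beside 45.5 CPM for the members). The exceptions were Wipi1, with an interval from -0.89 to 0.22, Lipa, from -0.65 to 0.24, and Tfeb, from -0.53 to 0.60. All 35 intervals lay within a 2-fold change. The spread between mice of a genotype had a median SD of 0.15 in log2 CPM for the members and 0.27 for all genes.

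**Figure D1:**
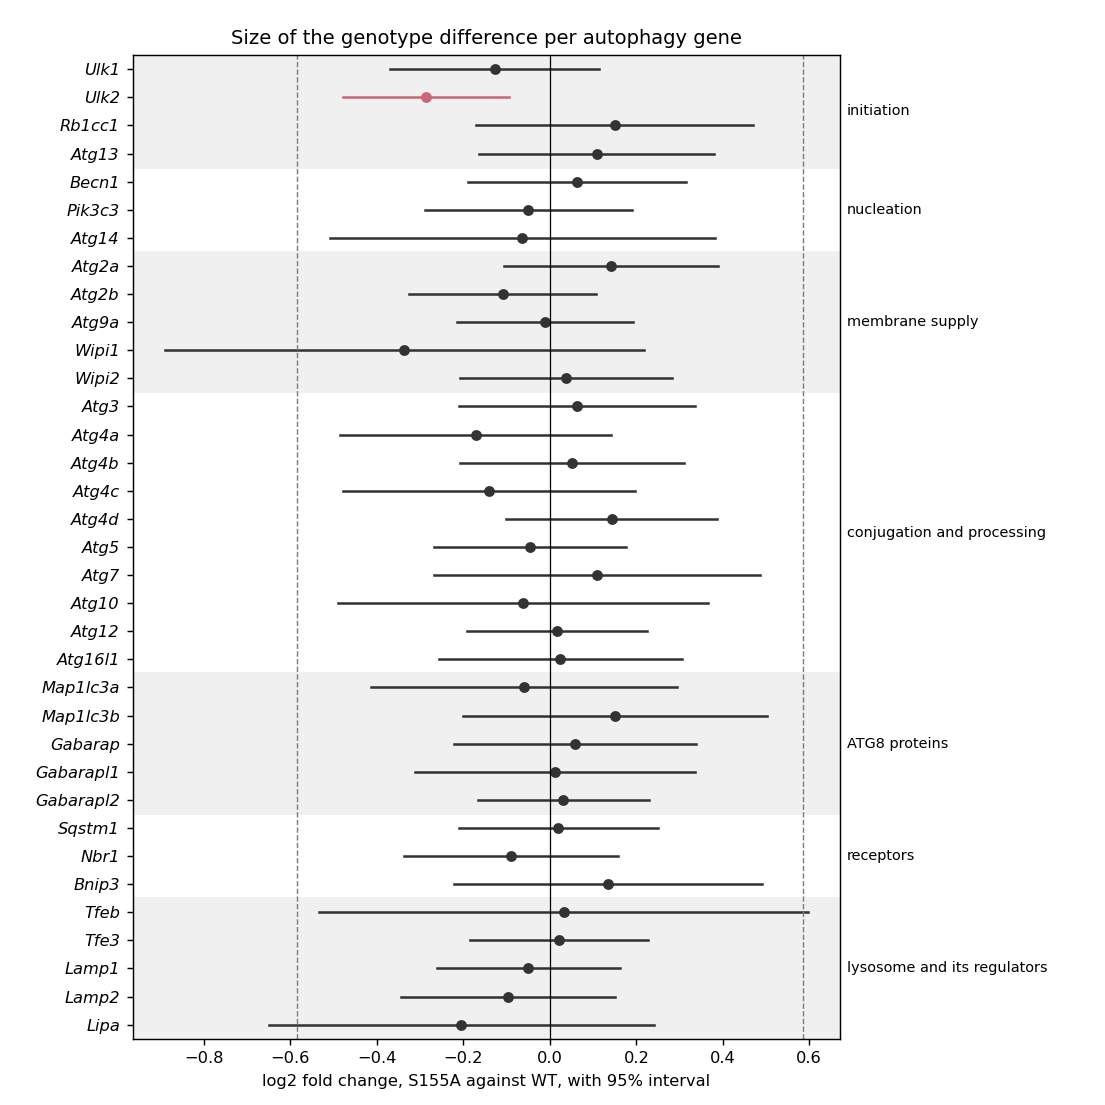
Log2 fold change of each autophagy gene, S155A against WT (points), with its 95% interval from the edgeR fit (lines), genes grouped by role. Dashed lines mark a 1.5-fold change in either direction, which the intervals of Wipi1, Lipa and Tfeb cross. Ulk2 (red), from -0.48 to -0.094, is the only interval without 0.

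The ULK complex starts autophagosome formation, with ULK1 and ULK2 as kinases and RB1CC1 (FIP200) and ATG13 as scaffold and regulator. Ulk2 (ENSMUSG00000004798) lies on chromosome 11 from 61775649 to 61855073 on the reverse strand in GRCm38, and no other annotated gene overlaps it. It was at 31.5, 35.7, 31.6 and 34.0 CPM in WT replicates 1 to 4 and at 27.1, 27.7, 26.8 and 27.3 CPM in S155A replicates 1 to 4. Every S155A mouse was below every WT mouse, and the S155A mice lay close together (27.2 ± 0.371 CPM, SD, n = 4) beside a WT level of 33.2 ± 2.03 CPM. The log2 fold change was -0.29 with a standard error of 0.09, and Ulk2 ranked 59 by p among 14629 genes (edgeR quasi-likelihood test, unadjusted p = 0.00769 and adjusted p = 0.993). A two-sided exact permutation of the 8 mice gave p = 0.0286, the smallest value this design can reach. A gene without overlap between the genotypes gets this value, so it adds nothing to the lack of overlap. By mean log2 CPM, S155A mice differed from WT by -0.27 in the series under 200 and by -0.30 in the series over 800. The shared sign also follows from the lack of overlap.

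Ulk1, the member of the complex with the highest level per kb, was at 87.9, 90.4, 93.3 and 93.3 CPM in WT replicates 1 to 4 and at 97.1, 74.1, 75.0 and 87.8 CPM in S155A replicates 1 to 4. S155A replicate 1 was above all WT mice and the other 3 were below them, replicate 4 only just. The log2 fold change of Ulk1 was -0.13 with a standard error of 0.11, and it differed by 0.028 in the series under 200 and by -0.30 in the series over 800. The log2 ratio of Ulk2 to Ulk1 within a mouse was -1.46 ± 0.0922 in WT mice and -1.61 ± 0.192 in S155A mice (SD, n = 4), with p = 0.229 in the two-sided exact permutation test. The distance between the kinases was therefore not shown to differ between genotypes. Atg13 was at 43.9, 38.5, 34.7 and 38.7 CPM in WT mice and at 34.2, 44.05, 47.8 and 41.9 CPM in S155A mice, and the groups overlapped. Rb1cc1 was between 15.1 and 22.4 CPM in WT mice and between 18.4 and 24.1 CPM in S155A mice, which also overlapped.

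Beclin 1, PIK3C3 (VPS34) and ATG14 form the lipid kinase complex that marks the site of autophagosome formation. Becn1, the highest of the 3 per kb, was at 47.4, 49.6, 52.5 and 62.1 CPM in WT mice and at 58.4, 54.7, 59.2 and 48.7 CPM in S155A mice, and all S155A mice lay within the WT range. Pik3c3 was at 17.3 ± 1.36 CPM in WT and 16.7 ± 1.37 CPM in S155A mice (SD, n = 4). Atg14, which directs the complex to autophagy, was at 16.7 ± 3.54 CPM in WT and 16.0 ± 3.74 CPM in S155A mice. The log2 fold changes were 0.063 for Becn1, -0.050 for Pik3c3 and -0.063 for Atg14.

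Membrane supply is the task of ATG9A, a lipid scramblase in vesicles, of the lipid transfer proteins ATG2A and ATG2B, and of WIPI1 and WIPI2, which read the lipid mark of the kinase complex. Wipi2 was the highest of the 5 per kb of principal transcript. By total exon length, at 9.08 CPM per kb in WT mice, it was below Atg9a (11.3) and Atg2a (10.3). Wipi2 was at 104, 94.9, 92.4 and 91.6 CPM in WT mice and at 106, 86.8, 89.1 and 111 CPM in S155A mice. The S155A mice were more spread than the WT mice, on both sides of them. Wipi1 had the largest fold change of all 35 members, -0.34 with a standard error of 0.25. It was between 6.28 and 13.5 CPM in WT mice and between 5.96 and 10.03 CPM in S155A mice. With 1 mouse left out its log2 fold change ran from -0.50 to -0.15, the latter without WT replicate 1, the mouse at 13.5 CPM. The log2 fold change was 0.14 for Atg2a, -0.11 for Atg2b and -0.011 for Atg9a.

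Among the 10 genes of conjugation and processing, ATG7 is the E1-like enzyme, ATG3 and ATG10 are the E2-like enzymes, ATG12, ATG5 and ATG16L1 form the complex that directs lipidation, and the 4 ATG4 proteases trim and recycle ATG8 proteins. Atg3, the highest per kb, was at 65.5, 63.0, 55.7 and 52.7 CPM in WT mice and at 51.3, 67.6, 69.1 and 59.4 CPM in S155A mice, which overlapped. In S155A mice 6 of the 10 genes were higher and 4 were lower, with log2 fold changes from -0.17 (Atg4a) to 0.14 (Atg4d). The proteases were divided, with Atg4a (-0.17) and Atg4c (-0.14) lower and Atg4b (0.052) and Atg4d (0.14) higher, each with an interval that held 0. Atg5, Atg12 and Atg16l1 differed by -0.045, 0.017 and 0.024, and Atg7 and Atg10 by 0.11 and -0.061.

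The 5 ATG8 genes encode the proteins that coat the growing membrane and hold cargo receptors. Gabarapl1 was at 309.7, 429, 385 and 409 CPM in WT mice and at 298, 416, 410.0 and 422 CPM in S155A mice. Replicate 1 was the lowest mouse of each genotype, and the others lay close together. Map1lc3b encodes the commonly used autophagosome marker LC3B and lies on chromosome 8 from 121590361 to 121598760 in GRCm38, where Zcchc14 on the other strand and Gm20388 on the same strand overlap it. Map1lc3b was at 206, 146, 129.8 and 158 CPM in WT mice and at 151, 187, 208 and 164 CPM in S155A mice. The highest values were in WT replicate 1 and S155A replicates 2 and 3, so that the groups overlapped (log2 fold change 0.15, standard error 0.16). Map1lc3a (-0.060), Gabarap (0.058) and Gabarapl2 (0.032) differed by less than their standard errors, as Gabarapl1 (0.013) did.

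The receptors link cargo to ATG8 proteins: p62 (Sqstm1) and NBR1 bind ubiquitin-tagged cargo, and BNIP3 sits on mitochondria. Sqstm1 was at 467, 527, 559 and 541 CPM in WT mice and at 522, 527, 487 and 587 CPM in S155A mice, with a log2 fold change of 0.020 and an interval from -0.21 to 0.25. Bnip3 was at 265, 205, 184 and 179 CPM in WT mice and at 199, 240.3, 279 and 197 CPM in S155A mice. It was highest in WT replicate 1 and S155A replicates 2 and 3, the same 3 mice in which Map1lc3b was highest. Cps1, a urea cycle enzyme read here as a hepatocyte marker, was also highest in these 3 mice, from 4617 to 5262 CPM beside 1829 to 3341 CPM in the 5 others. Among the other hepatocyte markers, Alb was highest in the same 3 mice, while Apoa1, Ttr and Asgr1 were not. Apoa1 (10622 CPM) and Ttr (3932 CPM) were at their lowest of all mice in WT replicate 1. The part of hepatocyte content in these values was not tested. The log2 fold change of Nbr1 was -0.09, within its standard error of 0.11.

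At the lysosome, LAMP1 and LAMP2 are membrane glycoproteins, lysosomal acid lipase (Lipa) cuts the triglyceride and cholesteryl ester brought by lipophagy, and TFEB and TFE3 regulate lysosomal genes. Lamp1 was at 454, 509.9, 484 and 495 CPM in WT mice and at 445, 509.5, 483 and 439 CPM in S155A mice, which overlapped. Its 95% interval, from -0.26 to 0.16, was among the narrow ones, and Lamp2 was alike with a log2 fold change of -0.097 (standard error 0.11). Lipa was at 231, 209, 248 and 297 CPM in WT mice and at 257, 187, 142 and 269.6 CPM in S155A mice, values given because its interval passed a 1.5-fold change. S155A replicates 2 and 3 were below all WT mice and the other S155A mice were within the WT range. The log2 fold change of Lipa was -0.20 with a standard error of 0.20, and with 1 mouse left out it ran from -0.33 to -0.051, the latter without S155A replicate 3. Tfeb was at 13.2 ± 4.495 CPM in WT and 13.5 ± 3.18 CPM in S155A mice (SD, n = 4), and Tfe3 at 26.3 ± 1.37 and 26.7 ± 1.73 CPM.

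**Figure D2:**
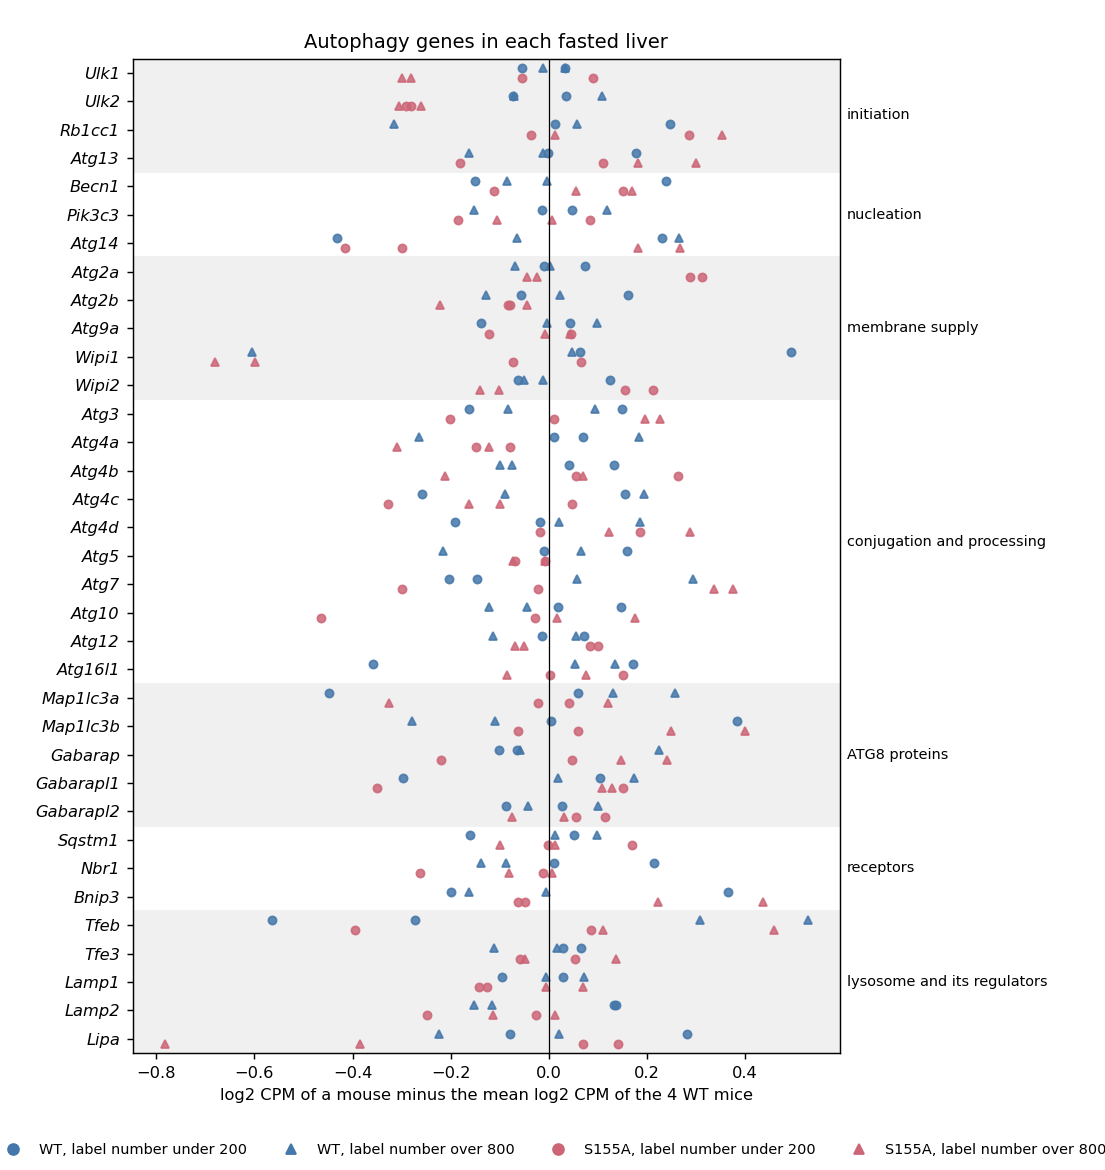
Each autophagy gene in each mouse, as log2 CPM minus the mean log2 CPM of the 4 WT mice, with WT in blue and S155A in red and the label number series as circles (under 200) and triangles (over 800). Only Ulk2 has all 4 S155A mice apart from all 4 WT mice, and Wipi1, Tfeb and Lipa are among the widest within a genotype.

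Related members were also compared within each mouse, so that library scaling drops out. The log2 ratio was taken for 9 pairs (Ulk2 to Ulk1, Atg2b to Atg2a, Wipi1 to Wipi2, Atg4a to Atg4b, Atg4c to Atg4d, Map1lc3a to Map1lc3b, Gabarapl2 to Gabarapl1, Lamp2 to Lamp1 and Tfeb to Tfe3), chosen after the values were seen. The smallest p was that of Atg2b to Atg2a, which was -1.28 ± 0.130 in WT mice and -1.52 ± 0.182 in S155A mice (SD, n = 4; two-sided exact permutation test, p = 0.0857). None of the 9 passed, with a smallest Benjamini-Hochberg adjusted p of 0.411 in the exact permutation tests. The difference between genotypes in the ratio ran from -0.35 for Wipi1 to Wipi2 to 0.044 for Tfeb to Tfe3.

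The genotype difference had opposite signs in the 2 label number series for 25 of the 35 members (71.4%), beside 54.9% of all genes tested. In the series under 200 the median difference was -0.025 with 14 members higher in S155A mice, and in the series over 800 it was -0.00088 with 17 members higher. Map1lc3b differed by -0.20 in the series under 200 and by 0.52 in the series over 800, Bnip3 by -0.14 and 0.41, and Atg13 by -0.12 and 0.33. These 3 had the smallest interaction p among the members. Tested as an interaction with edgeR's quasi-likelihood test, the difference between the series for Map1lc3b was 0.73 on the log2 scale (standard error 0.22, unadjusted p = 0.00993, adjusted p = 0.312). The adjusted p was 0.466 for Bnip3 and 0.469 for Atg13. By this test 0 of 35 members were called (0.00% of all genes tested), and 1 member (2.86%) had an unadjusted p under 0.05, beside 11.1% of all genes. Several of these signs rest on values near 0, such as -0.0038 and 0.022 for Gabarapl1. Ulk2 and Wipi1 were among the 10 members with the same sign, which for Ulk2 follows from its lack of overlap. Wipi1 was at -0.28 and -0.36.

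**Figure D3:**
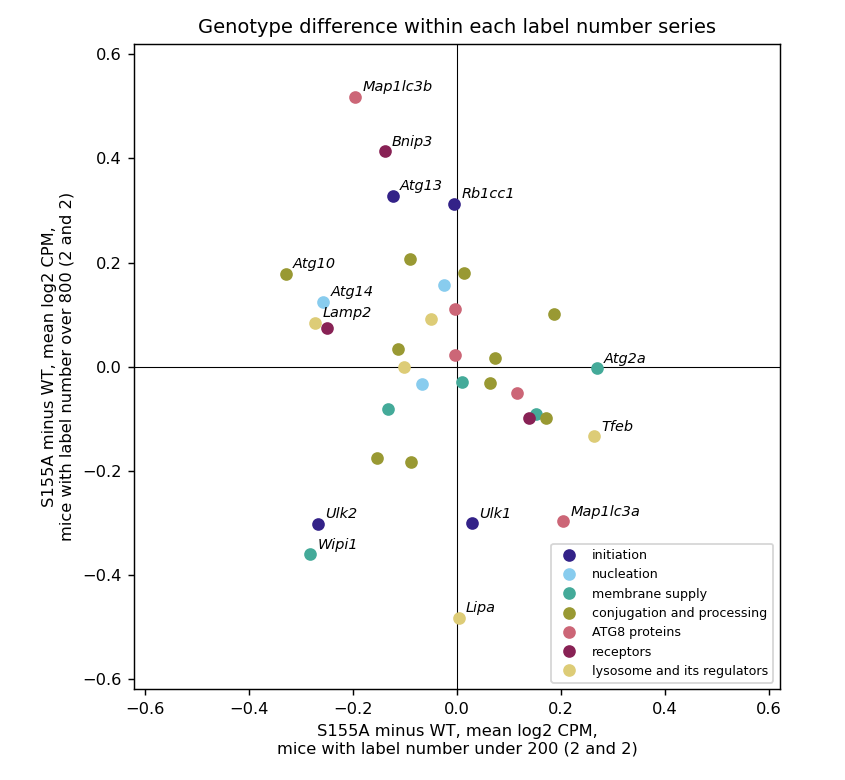
Difference in mean log2 CPM between S155A and WT mice in the series under 200 (horizontal axis) and in the series over 800 (vertical axis), 2 mice of each genotype in each, 1 point per autophagy gene coloured by role. The 25 points in the upper left and lower right quadrants have opposite signs in the series. Map1lc3b (-0.20 and 0.52) and Bnip3 (-0.14 and 0.41) lie far into the upper left, and Ulk2 and Wipi1 lie in the lower left.

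The members were also compared between the label number series in both genotypes together, a comparison added after the values were seen. In a fit with genotype and series, 5 members had an unadjusted p under 0.05 for the series (14.3%, beside 12.8% of all genes tested) and 0 had an adjusted p under 0.05 (0.00% of all genes), so the share was near the background. Tfeb was at 8.52 and 10.4 CPM in WT and 13.4 and 9.59 CPM in S155A mice of the series under 200, and at 18.2 and 15.6 CPM in WT and 17.4 and 13.6 CPM in S155A mice of the series over 800. All 4 mice over 800 were above all 4 mice under 200, a log2 difference of 0.63 with a standard error of 0.16 (edgeR, adjusted p = 0.200). Atg7 was likewise apart, from 33.0 to 40.04 CPM under 200 and from 42.3 to 52.7 CPM over 800, and differed by 0.43 with a standard error of 0.10 (edgeR, adjusted p = 0.179). These were the only 2 members (5.71%) without overlap between the series, beside 6.85% of all genes. Atg14 differed by 0.38, while Wipi1 and Lipa went the other way, by -0.59 and -0.44, and all 3 overlapped between the series.

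Of the 6 members with CACGTG in a promoter window, all but Atg5 were higher in the series with the higher label numbers. The share of all genes with this direction was not taken, so this split has no background to be set against. Beside Atg7 and Atg14 above, the difference was 0.15 for Atg3, 0.12 for Lamp1, 0.098 for Bnip3 and -0.074 for Atg5, each with an unadjusted p over 0.05 in the same edgeR fit. For Bnip3 and Atg5 the difference was smaller than its standard error (0.16 and 0.097). Tfe3 differed by -0.022. A link between motif and level was not tested.

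**Figure D4:**
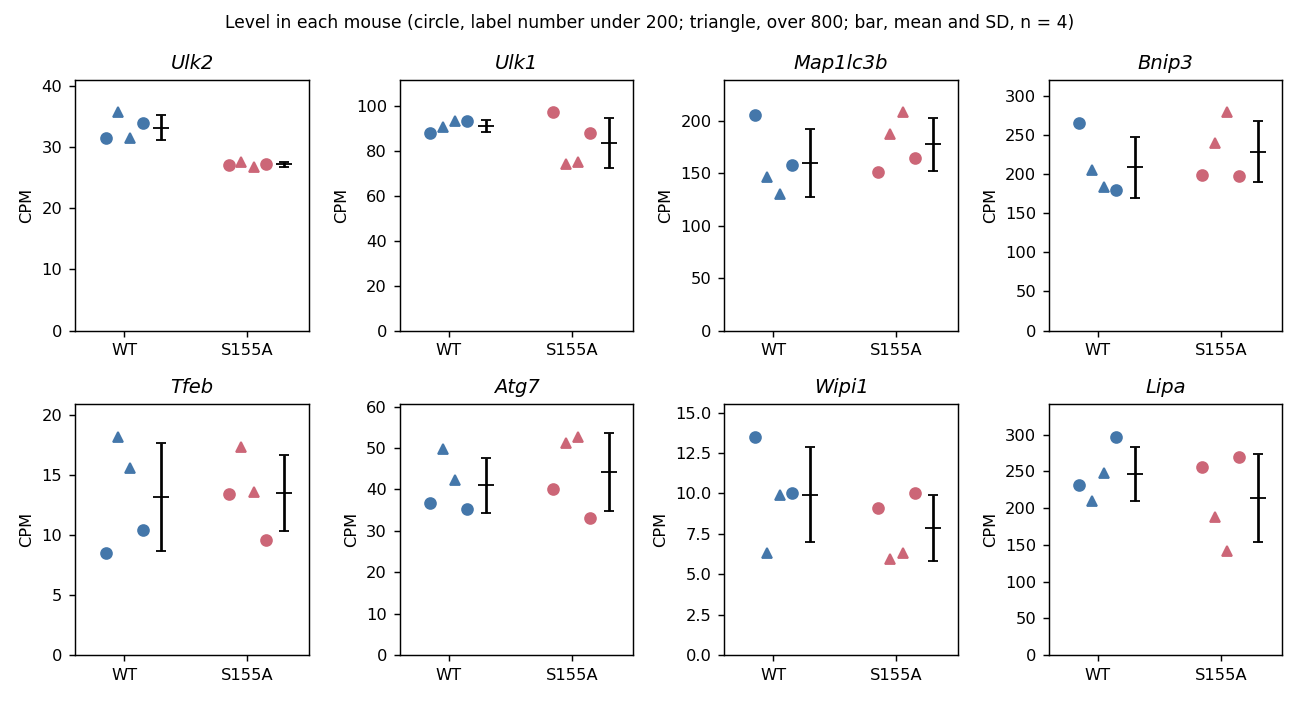
CPM of 8 autophagy genes in each mouse, WT in blue and S155A in red, with circles for label numbers under 200, triangles for over 800, and the mean with SD (n = 4) in black. Ulk2 lies from 26.8 to 27.7 CPM in all 4 S155A mice and above 31 CPM in WT mice, Map1lc3b and Bnip3 are highest in the same 3 mice, and Tfeb and Atg7 separate by series in both genotypes.

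No gene of the rest of the pathway was called either. The 6 further lists held 126 genes, of which 125 were tested and 0 passed an adjusted p of 0.05, with 63 higher and 62 lower in S155A mice (39 and 86 with library size alone). The median log2 fold change was -0.062 for 15 other core autophagy genes, 0.031 for 14 cargo receptors, -0.019 for 14 genes of fusion and tethering, 0.037 for 28 lysosomal hydrolases and membrane proteins, 0.014 for 15 v-ATPase subunits and -0.0019 for 39 upstream regulators. The hydrolase list had 20 of 28 genes higher (71.4%, beside 48.8% of all genes), but 10 of 28 with library size alone (35.7%, beside 41.1%). Of the 125, 1 had an unadjusted p under 0.05 (0.800%, beside 3.40% of all genes), Trp53inp1, whose product binds ATG8 proteins. Trp53inp1 was at 36.1, 53.8, 113 and 76.8 CPM in WT mice and at 29.2, 46.1, 45.5 and 42.8 CPM in S155A mice, or -0.77 on the log2 scale with a standard error of 0.30 (edgeR, adjusted p = 0.993). The groups overlapped, and WT replicates 3 and 4 were the high ones. Scarb2, the lysosomal membrane protein LIMP-2 that carries glucocerebrosidase, was the 1 gene without overlap (0.800%, beside 2.30% of all genes), from 162 to 174 CPM in WT and from 146 to 158 CPM in S155A mice. Its log2 fold change was -0.14 (standard error 0.08), and it is named after its values were seen.

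Markers of other liver cells were set beside these values, since lysosomal genes are also transcribed in macrophages. The summed level of 8 Kupffer cell and macrophage markers was 187 to 384 CPM in WT and 203 to 432 CPM in S155A mice, with 8 of 8 genes higher in S155A mice (48.8% of all genes were higher) and 0 without overlap. That of 4 stellate cell markers was 237 to 318 CPM in WT and 109 to 248 CPM in S155A mice, with 4 of 4 lower. In WT and S155A mice the sums were 111 to 161 and 97.7 to 133 CPM for 5 endothelial markers (2 of 5 higher), 24.5 to 81.3 and 34.0 to 41.2 CPM for 4 cholangiocyte markers (1 of 4 higher), and 4.29 to 10.9 and 7.07 to 23.3 CPM for 7 lymphocyte markers (7 of 7 higher). The lymphocyte sum of 23.3 CPM was that of S155A replicate 3 alone, and the other S155A mice, from 7.07 to 8.79 CPM, were within the WT range. Of the 5 hepatocyte markers, 4 were higher. Red blood cell genes ran from 278 to 1718 CPM in WT and from 646 to 791 CPM in S155A mice (0 of 3 higher), and 4 pancreatic acinar genes summed to 18.9 CPM in WT replicate 2 and to 0.554 CPM at most in S155A mice, where Cpa1 and Pnlip were at 0. Each marker was detected in at least 1 mouse, and the part of these cells in the autophagy values was not tested.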

How the data were processed

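Liver RNA of 8 female mice (4 WT, 4 S155A) was sequenced by the authors as stranded mRNA libraries with 100 bp paired reads. The deposited values are estimated counts, from salmon going by the name of the table, that were scaled for average transcript length and not for library size. The submitters' processing notes name GRCm38, bcl2fastq, STAR, SAMtools, MultiQC and DESeq2, and versions, annotation and strand setting are not given in the sources used here. Length scaling can move the count of a gene whose isoforms differ between mice, and the model divides reads of similar paralogs.

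Columns were matched to mice by the number in the description. Counts were rounded, filtered with filterByExpr (14629 of 45706 genes kept), TMM-normalized and compared with edgeR 4.0.16 (quasi-likelihood fit, R 4.3.3) over the 8 mice without a block, and p was adjusted over all genes tested by Benjamini-Hochberg. Standard errors came from the F statistic, and 95% intervals from these and the t distribution. Log2 CPM used a prior count of 2, and single genes were also compared by exact permutation of log2 CPM over mice. DESeq2 1.42.0 and limma-voom (limma 3.58.1) were alternatives, with other scalings, filters, blocks and left-out mice. The members, lists and rules were chosen with earlier results of these data known. Values in every mouse were given for members without overlap or with an unadjusted p under 0.05, the member of each role with the highest CPM, and the 3 with the smallest interaction p. Lengths are from GENCODE M21. Genes on the opposite strand overlap 13 members, among them Becn1 (Cntd1), Sqstm1 (Mrnip), Map1lc3b (Zcchc14) and Lamp1 (Grtp1), whose counts are uncertain if strand was not used. The p-values set the genotype difference against the spread between these mice, which are taken as independent. Nothing says whether the mice share litters, and if they do, this does not hold. The tests were checked on simulated counts, and no 2 libraries of a genotype were copies (chi-square of at least 40.3 per gene, where sampling noise gives about 1).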

Additional observations from a re-analysis of the deposited data

Results flagged for a closer look

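In 70 groups of 4 mice (35 genes, 2 genotypes), the mouse farthest from the others was compared with the range of its group, and 2 stood apart by Dixon's 95% criterion, where chance gives about 3.5. For Gabarap, WT replicate 2 stood at 244 CPM, above a range of 195 to 201 CPM in the rest of the WT group. For Gabarapl1, S155A replicate 1 stood at 298 CPM, below a range of 410.0 to 422 CPM in the rest of the S155A group. The interaction of genotype with label number series was tested for all 35 members, and none stood out at an adjusted p of 0.05.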

How the results depend on the processing

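No member was called in the 17 other settings tried (DESeq2, limma-voom, a robust fit, 2 other scalings, 2 other filters, a replicate block, a block for the label number series and 8 fits that each left out 1 mouse). The median log2 fold change of the members stayed between -0.019 and 0.027 over all settings. With 1 mouse left out it ran from -0.019 (without S155A replicate 4) to 0.027 (without WT replicate 2), and 0 members, 0 genes of the other lists and 0 of all genes were called. Over all genes, DESeq2 called 6 where edgeR called 0 (497 genes at an unadjusted p under 0.05 with edgeR, 594 with DESeq2). The cause was not tested. Of the 35 members, 21 kept their direction in every setting, 7 changed sign with library size alone in place of TMM, which shifted all genes by -0.037 at the median, and 7 others changed sign only with a mouse left out. With library size alone the log2 fold change was -0.017 for Atg12, -0.0068 for Atg16l1, -0.033 for Gabarapl1, -0.0045 for Gabarapl2, -0.017 for Sqstm1, -0.016 for Tfeb and -0.015 for Tfe3. Leaving out 1 mouse at a time gave log2 fold changes from -0.19 to 0.045 for Atg14, from -0.024 to 0.13 for Atg4b, from -0.11 to 0.013 for Atg5, from -0.055 to 0.025 for Atg9a, from -0.14 to 0.055 for Atg10, from -0.019 to 0.052 for Atg12, from -0.081 to 0.085 for Atg16l1, from -0.18 to 0.028 for Map1lc3a, from -0.073 to 0.12 for Gabarapl1, from -0.031 to 0.060 for Sqstm1, from -0.024 to 0.10 for Wipi2, from -0.13 to 0.23 for Tfeb and from -0.017 to 0.052 for Tfe3. Ulk2 kept its direction throughout, from -0.32 to -0.25, with an adjusted p of at least 0.514. Without overlap between genotypes, Ulk2 could hardly change sign when 1 mouse was left out. With the replicate block it was -0.28 (adjusted p = 0.967), and 0 members were called. Mice of the same replicate number also fall in the same label number series, and the labels do not say whether they were paired. The correlation of deviations between same-numbered mice was 0.056, 0.17, -0.11 and 0.13, and not every mouse matched its own number best. These few values cannot decide whether such mice share more than the series. The number of mice limits the intervals, and for Atg10, at 129 to 189 counts per mouse, depth may too, which was not tested. The intervals of Wipi1, Lipa and Tfeb, which passed a 1.5-fold change, come from the fit without a block. With the block for the label number series, their standard errors were 0.17, 0.15 and 0.16, beside 0.25, 0.20 and 0.25 without it.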
